A study of Rattus norvegicus with 10 samples.

Results

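The genes described here build, crosslink and break down the extracellular matrix of the liver, or mark the hepatic stellate cell that makes much of it. They were all collagen chains in a deposited isoform table of rat liver RNA, plus 18 named genes for other matrix proteins, matrix enzymes, the growth factor Tgfb1 and stellate cell markers. Isoforms that matched the reference gene, or shared its splice junctions or exons, were summed per gene. This gave 56 members, 38 of them collagens, among 20226 genes, and the members came from 96 of the 51430 isoforms in the table. Of the 56, 28 members reached a mean of 1 FPKM (a fragment count scaled to transcript length and library depth) and entered the test across all genes.

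Both groups were Wistar rats, wild type in genotype, made diabetic in the same way. They ate a diet with 60% of calories as fat for 4 weeks and received 35 mg/kg streptozotocin, a toxin of insulin-producing beta cells, after 16 h of fasting. Rats above 16.7 mmol/L glucose 3 days later were assigned to sleeve gastrectomy (SG), an operation that removes most of the stomach, or to a sham operation (SHAM), with groups matched on body weight. There were 5 liver libraries in each group. SG liver was labelled as 3 months after surgery and the time was not stated for SHAM, so operation and time after surgery cannot be told apart if they differ. The controls carry the diet and the streptozotocin too, and no untreated rats are analysed here. The labels do not state that each library is a separate rat, and p-values then reflect only how far these samples spread, which may be in part technical. The comparison addresses how the diabetic liver differs after sleeve gastrectomy from the liver after a sham operation.

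In the healthy liver, quiescent stellate cells lie between hepatocytes and the sinusoidal endothelium, store vitamin A as retinyl esters and make basement membrane components. After injury, stellate cells and portal fibroblasts can turn into myofibroblasts, which contain smooth muscle actin and deposit collagens I and III. TGF beta and PDGF are the best known signals for this change, and the balance of matrix metalloproteinases and their inhibitors sets how fast the matrix is removed. Whole liver RNA mixes all of these cells with hepatocytes, so fewer cells of a type and less RNA per cell cannot be told apart.

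No member passed the test between SG and SHAM, and neither did any other gene. With edgeR's quasi-likelihood test and Benjamini-Hochberg adjustment over 11139 genes, 0 genes (0%) had an adjusted p under 0.05, and the members' adjusted p lay between 0.991 and 1. At an unadjusted p under 0.05 stood 505 genes (4.53%), and DESeq2 called 18 genes, none of them a member. The members at that unadjusted level were 3 of 28, Acta2, Thbs1 and Col6a2, all with higher means in SG. Their median log2 fold change, SG minus SHAM, was 0.17, against -0.01 over all genes, and 23 of 28 were positive against 47.4% of all genes. With limma on log2(FPKM + 0.5), which lacks the TMM scaling, 25 of 28 were positive against 69.6% of all genes, whose median was 0.08. Much of that rested on 1 library, SG 2. Without SG 2 the median was -0.04, 11 of 28 were positive against 46.8% of all genes, 0 of 11139 genes were called, and at an unadjusted p under 0.05 stood 1 member among 445 genes (3.99%). That member was Col3a1, with a lower mean in SG. The 95% confidence interval of a member's log2 fold change had a median half-width of 0.70 with all libraries, against 0.37 over all genes. A typical member's interval thus reached 0.70 on the log2 scale to either side of its own estimate.

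**Figure D1:**
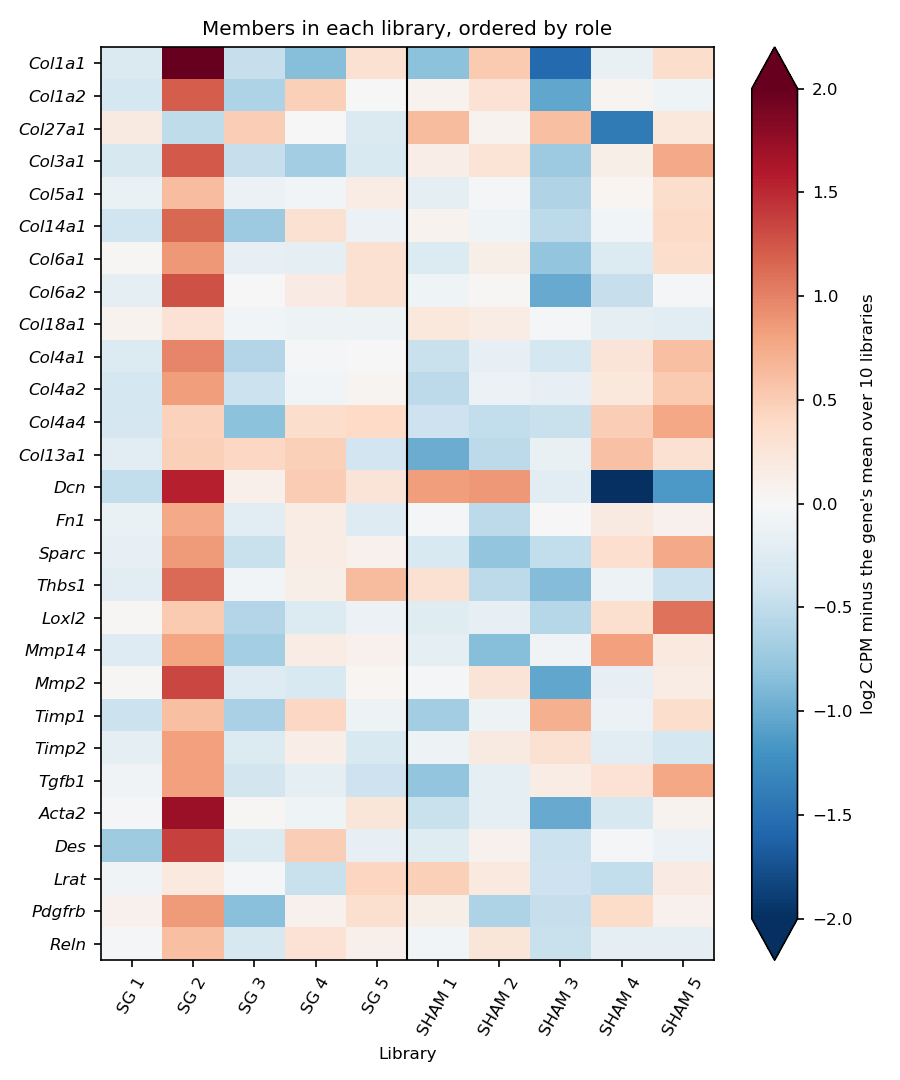
Each cell is the log2 CPM of 1 member in 1 library minus the mean of that member over the 10 libraries; rows are the 28 members at a mean of at least 1 FPKM in order of role, columns the 5 SG and 5 SHAM libraries, and colour saturates at the ends of the scale. The column of SG 2 is red for 27 of 28 members, and its median over members is 0.85, against 0.20 in SHAM 5 and -0.44 in SHAM 3.

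SG 2 held the highest FPKM of the 10 libraries for 24 of the 28 tested members, whereas 15.9% of all genes had their highest value there. The exceptions were Col27a1, highest in SHAM 1, Col4a4 and Loxl2, highest in SHAM 5, and Lrat, highest in SG 5. By CPM (counts scaled to library size) with TMM factors, 21 members were highest in SG 2, against 13.7% of all genes. The FPKM in SG 2 was at least 2 times the median of the other 9 libraries for 15 members (4.6% of all genes), and at least 1.5 times the highest other SG library for 15 members (4.87%). Its ratio to the median of the other 9 ran from 0.664 for Col27a1 to 9.3 for Col1a1. A filter on the mean keeps genes that 1 high library lifts, and it let in 2 members, Col1a1 and Col13a1, whose mean was under 1 FPKM without SG 2. Among the 28 members under the filter, 13 were highest in SG 2, against 19.7% of such genes. With SG 2 set aside, SHAM 5 was highest of the 9 libraries for 7 members (9.44% of all genes). SHAM 3 was the lowest of the 10 libraries for 12 members (19%). The FPKM of SG and SHAM did not overlap for 0 of 28 members (1.34% of all genes).

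**Figure D2:**
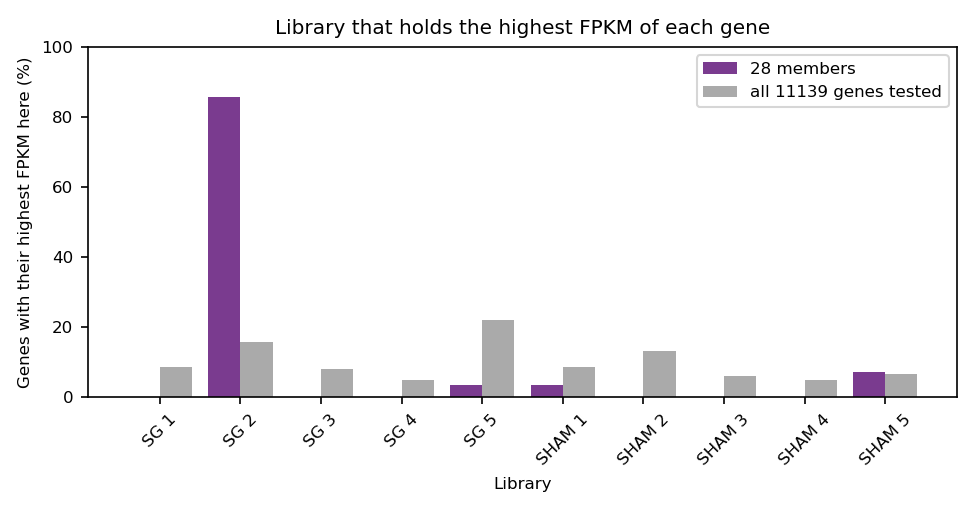
Bars give the share of genes, in percent, whose highest FPKM of the 10 libraries lies in the library on the x axis, for the 28 tested members and for all 11139 genes tested. The member bar of SG 2 stands at 85.7% and that of all genes at 15.9%, while SG 5 is highest for 22.2% of all genes and for 1 member.

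SG 2 was not shallow. The SG libraries totalled 77617460 to 92110190 counts, with 89209492 in SG 2, and the SHAM libraries 65824088 to 85520959. Some marker lists of liver cell types were high in SG 2 with the members and others were not. The 16 macrophage and Kupffer cell markers, 15 of which were in the table, summed to 705 FPKM in SG 2, 319.6 to 364 in the other SG libraries and 269 to 694 in SHAM, with the top SHAM value in SHAM 5. Of the 13 tested genes of that list, 6 were highest in SG 2, among them Lyz2, the lysozyme of myeloid cells, with 81.6 FPKM there and 9.57 to 20.1 elsewhere. Another 6, Cd68, C1qa, C1qb, C1qc, Clec4f and Vsig4, were highest in SHAM 5. None was called. The fitted SG minus SHAM difference was below 0 for 10 of the 13 (median -0.35 on the log2 scale). Without SG 2 the median was -0.62 and 4 stood at an unadjusted p under 0.05, all below 0 (Gpnmb, Cd68, C1qc and Marco). The 5 B and plasma cell markers, 4 of them in the table, summed to 66.6 FPKM in SG 2, 20.2 to 30.7 in other SG and 6.05 to 25.3 in SHAM. Jchain, the joining chain of secreted antibodies, made up most of that sum in SG 2, with 63.4 FPKM. The 12 endothelial markers, 11 of them in the table, summed to 168 in SG 2, 116 to 146 in other SG and 85 to 147 in SHAM. The 9 portal fibroblast markers summed to 86.4 in SG 2, 42.7 to 73.2 in other SG and 35.9 to 75 in SHAM. Dpt, dermatopontin, the only tested one, held most of that sum, with 76.7 FPKM in SG 2 and up to 71.9 in SHAM. The other 8 were each at 2.26 FPKM or less, and 6 of them were highest in SG 2, such as Clec3b, with 2.19 FPKM there and at most 0.298 elsewhere, and Fbln2, with 1.7 and at most 0.402. The 6 mesothelial markers summed to 7.91 in SG 2, 0.607 to 4.27 in other SG and 2.04 to 5.35 in SHAM, mostly from Gpm6a (5.84 in SG 2), and each of the 6 was highest in SG 2. The sum of 8 hepatocyte markers was 33477 FPKM in SG 2, 36810 to 46577 in other SG and 29775 to 43102 in SHAM, with the lowest value in SHAM 5. Albumin, Alb, held most of it, with 17083 in SG 2 and 21989.6 to 27809.9 in other SG. Cps1, Apoa1 and Tat were also below the other SG libraries in SG 2, while Ttr, Serpina1 and Hnf4a lay inside their range and Tf, at 10006, above their 7342 to 9754. Cholangiocyte markers summed to 2.81 in SG 2, 4.04 to 10.2 in other SG and 2.16 to 9.18 in SHAM. Myofibroblast and smooth muscle markers (37.3 in SG 2, 33.2 to 55.7 in other SG, 28.3 to 48.6 in SHAM) and red blood cell markers (49.2, 25 to 94.8 and 45.9 to 224) were inside the range of the others. Mylk and Tagln held most of the myofibroblast and smooth muscle sum in SG 2. Of that list the member Acta2, Cnn1, Tpm2 and Actg2 were highest in SG 2, and Mylk, Tagln, Myh11, Lmod1 and Synpo2 in other libraries. T and NK cell markers, mostly Cd4, summed to 19.1, 9.32 to 9.98 and 8.38 to 22.1. Cd4 alone had 16.2 FPKM in SG 2, 7.23 to 8.6 in other SG and up to 17.8 in SHAM. The CD3 subunit genes Cd3e and Cd3d, at 0.331 and 0.0735 in SG 2, lay inside the range of other SG. Cd8a and Nkg7, at 1.45 and 0.956, lay above other SG and below the SHAM maximum. The 4 neutrophil genes summed to 3.15 in SG 2, 0.774 to 2.39 in other SG and 0.0282 to 1.42 in SHAM, with Mpo at 0 in every library. What part these cells have in the members' values was not tested, and the labels give no batch.

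Stellate cell RNA was read from 20 markers, which were all in the table, and 18 of them were tested. The list includes the members Lrat, Reln, Des and Pdgfrb, so it is not separate from the members. Their sum was 184 FPKM in SG 2, 120.2 to 160.2 in the other SG libraries and 123 to 159 in SHAM, so stellate cell RNA was present in each library. The smallest p of the list was that of Tcf21, a mesenchymal transcription factor, with a log2 fold change of 0.53 ± 0.21 (SE) and an adjusted p of 0.991 (edgeR), or 0.41 ± 0.21 without SG 2. Lrat, which makes the retinyl esters that stellate cells store, is encoded at chr2:181896305-181905300 (Rnor_6.0, the build of the deposited coordinates, as for all positions of members below). It had 8.91, 12.3, 9.50, 8.17 and 13.9 FPKM in SG 1 to SG 5 and 13.7, 12, 6.95, 7.14 and 10.3 in SHAM 1 to SHAM 5. The groups overlapped over nearly their whole range, with means of 10.6 ± 2.44 (SD, n = 5) and 10 ± 2.98 (SD, n = 5) and a log2 fold change of 0.01 ± 0.22 (SE), or -0.03 ± 0.24 without SG 2. Reln, the secreted glycoprotein reelin, had 12.2, 18.8, 9.74, 14.7 and 14.5 FPKM in SG and 12, 14.7, 8.25, 9.90 and 9.99 in SHAM. SG 2 was highest and SHAM 3 lowest, and the log2 fold change of 0.26 ± 0.18 (SE) became 0.13 ± 0.16 without SG 2. Lrat and Reln differed less between SG 2 and the rest than most members did, at 1.3 and 1.56 times the median of the other 9 libraries. They do not stand for the whole list. Of its 18 tested markers 10 were highest in SG 2, against 15.9% of all genes, and the rest were highest in other libraries. Those 10 include Reln, Des and Pdgfrb, which are already counted among the members highest in SG 2. Cygb, for example, had 5.7 FPKM in SG 2, 2.57 to 3.69 in other SG and 1.66 to 3.69 in SHAM.

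Des and Pdgfrb are shared by stellate cells and other mesenchymal cells of the vessel wall. The intermediate filament gene Des had 0.699, 2.94, 0.922, 1.56 and 1.10 FPKM in SG and 0.959, 1.22, 0.760, 1.01 and 0.949 in SHAM. Its SG 2 value was 1.89 times the next SG library, SG 1 was the lowest of all, and the log2 fold change of 0.47 ± 0.36 (SE) was 0.04 ± 0.24 without SG 2. Pdgfrb, the receptor for PDGF-BB, had 3.72, 6.24, 2, 3.58 and 4.38 FPKM in SG against 3.67, 2.51, 2.31, 4.16 and 3.4 in SHAM. Both the highest and the lowest library were SG, with a log2 fold change of 0.26 ± 0.29 (SE), or 0.03 ± 0.26 without SG 2.

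Acta2, alpha smooth muscle actin, the classic myofibroblast protein, is encoded at chr1:252537615-252550394. Its FPKM was 1.41, 4.67, 1.42, 1.29 and 1.83 in SG 1 to SG 5 and 1.04, 1.25, 0.624, 1.02 and 1.35 in SHAM 1 to SHAM 5. SG 2 stood 2.54 times above the next library of its group, and SG 4 lay below SHAM 5, so in FPKM the groups overlapped by a single pair of libraries. By log2 CPM with TMM factors, the scaling of the fit, the overlap was wider. Minus the gene's mean, SG 1, SG 3 and SG 4 stood at -0.021, 0.03 and -0.085, all below SHAM 5 at 0.067. The log2 fold change was 0.91 ± 0.38 (SE), with an unadjusted p of 0.0372 and an adjusted p of 0.991 (edgeR). Without SG 2 it was 0.39 ± 0.22, with an unadjusted p of 0.107. The other tested contractile genes of smooth muscle, Tagln and Mylk, were not high in SG 2. Tagln, the actin-binding protein transgelin, had 8.10 FPKM there, within the 3.70 to 14.5 of other SG libraries, and Mylk, myosin light chain kinase, had 21.8, below the 22.3 to 36.7 of the other 9. Of the 6 markers of that list under the filter, Cnn1, Tpm2 and Actg2 were highest in SG 2, at 0.135, 0.513 and 0.24 FPKM, and Myh11, Lmod1 and Synpo2 were highest in other libraries.

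The stretch before the Acta2 start is shown because the serum response factor, a regulator of smooth muscle actin, binds CArG boxes, which are instances of the pattern CCNNNNNNGG. The 150 bases upstream of the RefSeq start, at chr1:241172504-241172653 on the minus strand of GRCr8, a later build than that of the deposited coordinates, read as follows, with each match in capitals.
Acta2 upstream: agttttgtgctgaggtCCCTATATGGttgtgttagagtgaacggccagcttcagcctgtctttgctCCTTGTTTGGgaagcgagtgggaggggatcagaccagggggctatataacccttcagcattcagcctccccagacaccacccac
Both matches fall in this stretch. The pattern reads the same on both strands, and it is a loose one, found in 65.1% of 33469 RefSeq rat promoter windows of 250 bases and in 33 of the 44 windows of 41 members. A match is a description of letters, not evidence of binding.

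Among fibril-forming collagens, 5 of 10 chains were tested. Col1a1, the alpha 1 chain of type I collagen, is encoded at chr10:82745801-82762789 and was near the filter in most livers. It had 0.573, 5.25, 0.491, 0.368 and 0.933 FPKM in SG, and 0.391, 0.994, 0.209, 0.564 and 0.807 in SHAM. SG 2 held 5.63 times the next SG library, and the other SG libraries lay inside the SHAM range, giving a log2 fold change of 1.28 ± 0.76 (SE) with SG 2 and -0.11 ± 0.42 without it. This member passed the filter only through SG 2: its mean over the other 9 libraries was 0.592 FPKM. The partner chain Col1a2 (chr4:31534225-31569151) had 2.55, 7.38, 2.03, 4.32 and 3.50 FPKM in SG and 3.35, 3.93, 1.40, 3.02 and 2.98 in SHAM. SG 2 was again highest and SHAM 3 lowest, with a log2 fold change of 0.38 ± 0.35 (SE) that became 0.02 ± 0.29 without SG 2.

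Col3a1, the chain of type III collagen found beside type I in soft tissue, was the most abundant fibrillar chain (chr9:52023295-52059217). Its FPKM was 14.1, 40.8, 12.5, 10.5 and 15.3 in SG and 19.2, 21.2, 9.50, 17.2 and 26.9 in SHAM. The SG libraries other than SG 2 lay between 10.5 and 15.3, while all SHAM libraries but SHAM 3 lay at 17.2 or above. The means were 18.6 ± 12.5 (SD, n = 5) and 18.8 ± 6.34 (SD, n = 5), with a log2 fold change of -0.10 ± 0.39 (SE). Without SG 2 it was -0.62 ± 0.25, with an unadjusted p of 0.0319 and an adjusted p of 0.993 (edgeR), so the lower SG level did not pass the test either.

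The proportion of the chains differed in SG 2 as well as their level. Col3a1 stood at 7.77 times Col1a1 in SG 2 and at 16.4 to 49.2 times in the other 9 libraries. Col1a2 stood at 1.41 times Col1a1 in SG 2 and at 3.69 to 11.7 times elsewhere. The 2 ratios share Col1a1, whose count was 3114 in SG 2 and no lower than 132 in any library.

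Col5a1, a chain of type V collagen, which is incorporated into type I fibrils, had 2.26, 3.93, 2.29, 2.49 and 3.14 FPKM in SG and 2.26, 2.39, 1.67, 2.44 and 3.12 in SHAM. The groups differed little apart from SG 2, with a log2 fold change of 0.18 ± 0.20 (SE) and of 0.03 ± 0.17 without it. Col27a1, another fibrillar chain, had 1.45, 0.892, 1.75, 1.24 and 1.13 FPKM in SG and 1.96, 1.34, 1.74, 0.425 and 1.34 in SHAM. It was the one member below its own mean in SG 2, and its log2 fold change was -0.16 ± 0.34 (SE), or -0.05 ± 0.36 without SG 2.

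Col14a1, undulin, a collagen that sits on fibril surfaces, had 5.90, 17.4, 4.67, 9.30 and 7.76 FPKM in SG and 8.31, 10, 4.76, 6.72 and 9.18 in SHAM. Only SG 2 exceeded the SHAM maximum, and the log2 fold change moved from 0.21 ± 0.33 (SE) to -0.17 ± 0.23 without it. That maximum, 10 in SHAM 2, includes 3.09 FPKM of an assembled isoform at 0 in every other library. By log2 CPM with TMM factors, minus the gene's mean, SHAM 2 was at -0.092. On that scale SHAM 5 was the highest SHAM library at 0.381, above SG 4 at 0.31 and below SG 2 at 1.153. Type VI collagen forms beaded filaments around cells, and its chains Col6a1 and Col6a2 lie on chr20 with 97.9 kb between them. Col6a1 (chr20:12658065-12675561) had 6.82, 12, 5.80, 5.68 and 8.91 FPKM in SG and 5.77, 7.17, 3.46, 4.93 and 7.71 in SHAM. Col6a2 (chr20:12773427-12801180) had 3.95, 10.5, 4.46, 4.70 and 6 in SG and 4.26, 4.38, 2.01, 2.92 and 3.96 in SHAM. For Col6a2, 4 of 5 SG libraries lay above the highest SHAM library in FPKM and SG 1 lay below 3 SHAM libraries. By log2 CPM with TMM factors, minus the gene's mean, SG 3 at 0.003 also lay below the highest SHAM library, SHAM 2 at 0.022. The log2 fold change of Col6a2 was 0.68 ± 0.30 (SE), with an unadjusted p of 0.0427 and an adjusted p of 0.991 (edgeR), and without SG 2 it was 0.35 ± 0.21. For Col6a1 the values were 0.35 ± 0.25 and 0.14 ± 0.22.

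**Figure D3:**
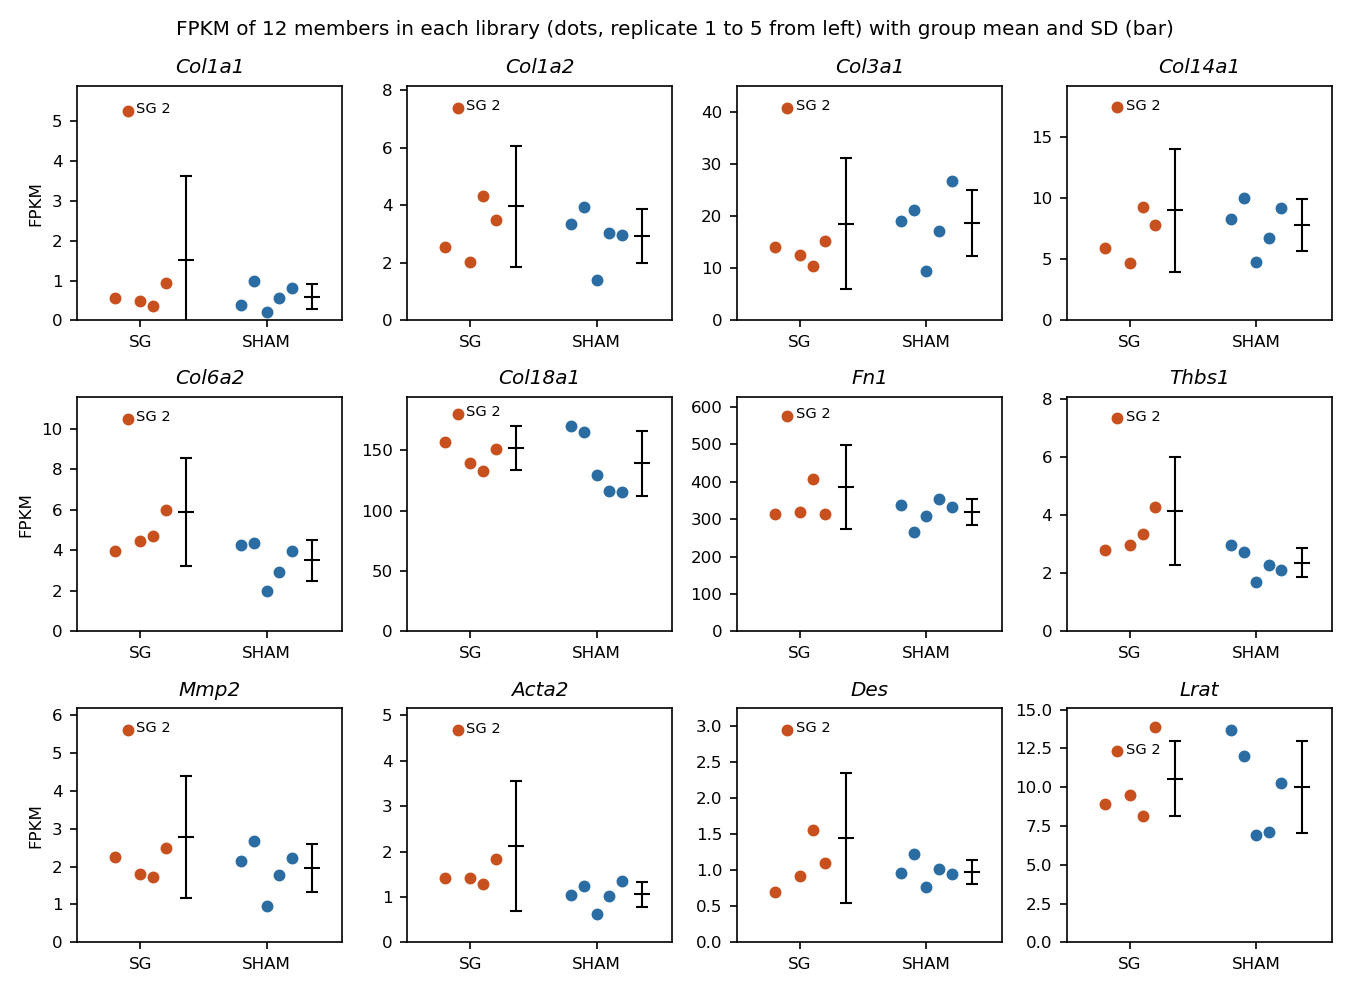
Dots give the FPKM of 12 members in each library, replicate 1 to 5 from left to right within each group, on linear axes from 0, and the black bar the group mean with its SD (n = 5); the lower arm of Col1a1 in SG runs below 0 and is cut at the axis. SG 2 stands apart for Col1a1 (5.25 FPKM), Acta2 (4.67) and Col3a1 (40.8), and lies among the other libraries for Lrat (12.3).

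Basement membrane collagens included the most abundant collagen of this liver. Col18a1, whose C-terminal fragment is endostatin and which hepatocytes are known to express, had 157, 179.7, 139, 133 and 151 FPKM in SG and 170.4, 165, 129.5, 116 and 115 in SHAM. Its coefficient of variation over the 10 libraries was 15.4%, the lowest among tested members, and the log2 fold change was 0.04 ± 0.13 (SE), or -0.03 ± 0.13 without SG 2. The interval with all libraries, -0.26 to 0.34, excludes a 1.5-fold difference in either direction. The type IV chains that line sinusoids and vessels were lower. Col4a1 had 4.84, 11.3, 3.75, 5.50 and 6.33 FPKM in SG and 4.26, 5.16, 4.10, 6.22 and 8.02 in SHAM, with SG 2 and SHAM 5 the highest. Col4a2 had 6.39, 15, 6.06, 7.34 and 9.09 in SG and 6.14, 7.70, 6.68, 9.11 and 11.1 in SHAM, in nearly the same order. These Col4a2 values add assembled pieces of the gene that do not overlap, so their level cannot be set against that of Col4a1. The log2 fold changes were 0.09 ± 0.30 (SE) and 0.06 ± 0.27, and without SG 2 -0.23 ± 0.23 and -0.21 ± 0.20. Col4a4, a chain known from the kidney filter, had 1.79 to 3.49 FPKM in SG and 1.86 to 3.91 in SHAM, with a log2 fold change of 0.01 ± 0.33 (SE), or -0.10 ± 0.35 without SG 2.

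Col4a1 and Col4a2 are read in opposite directions from a shared region. In the deposited Rnor_6.0 coordinates Col4a2 ends at chr16:83522214 on the minus strand and Col4a1 begins at chr16:83522162 on the plus strand, an overlap of 53 bp, and no source used here states the strand setting of the counting, so reads in the overlap cannot be told apart. In RefSeq on GRCr8 the 2 starts are 76 bases apart, at chr16:84885521-84885596. That gap is shown because the pair moved together more closely than any other pair compared, with the GC box (GGGCGG, here read on the opposite strand) in capitals.
Col4a1 and Col4a2 gap: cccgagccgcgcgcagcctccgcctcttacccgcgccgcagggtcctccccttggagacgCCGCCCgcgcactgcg
The GC box, searched on both strands, was in 26 of 44 member windows (59.1%) and in 30.5% of all windows. For CCAAT the values were 29.5% and 34%, and for TATAAA 9.09% and 12.9%, and matches of different motifs may overlap.

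Of 11 pairs of members compared across the 10 libraries on log2(FPKM + 0.5), Col4a1 and Col4a2 had the highest Pearson r, 0.98 (two-sided permutation test, p = 2e-05, adjusted over the 11 pairs 0.00022), with Spearman's rho 0.94 (adjusted permutation p = 0.00253). The relation stayed at 0.96 without SG 2 and at 0.92 over the 8 libraries left without SG 2 and SHAM 5, the 2 farthest from the Col4a1 median. For Col6a1 and Col6a2, r was 0.92 (adjusted permutation p = 0.00374) and rho 0.66 (adjusted permutation p = 0.161), and r was 0.66 without SG 2 and SHAM 3. Col1a1 and Acta2 gave r 0.94 (adjusted permutation p = 0.00456) and rho 0.62 (adjusted permutation p = 0.168), and r was 0.72 without SG 2 and 0.48 without SG 2 and SHAM 3, so the relation rests on those libraries. Col1a1 and Col1a2 gave r 0.79 (adjusted permutation p = 0.019) and rho 0.50 (adjusted permutation p = 0.228), and r was 0.14 without SG 2 and SHAM 3. Col1a1 and Col3a1 gave r 0.84 (adjusted permutation p = 0.00456) and rho 0.78 (adjusted permutation p = 0.0598), and r was 0.56 without those 2. The stellate markers Lrat and Reln gave r 0.61 (adjusted permutation p = 0.0858) and rho 0.54 (adjusted permutation p = 0.228), and r was 0.57 without SG 2. Mmp2 with its inhibitor Timp2 gave r 0.56 (adjusted permutation p = 0.138) and rho 0.26 (adjusted permutation p = 0.516), and r was -0.27 without SG 2. Des and Acta2 gave r 0.83 (adjusted permutation p = 0.0394) and rho 0.26 (adjusted permutation p = 0.516), and r was 0.30 without SG 2. Col5a1 and Col5a2 gave r 0.67 (adjusted permutation p = 0.0555) and rho 0.53 (adjusted permutation p = 0.228), and r was 0.54 without SG 2. For Mmp2 with Mmp14 r was 0.36 (adjusted permutation p = 0.343) and rho 0.02, and for Des with Lrat r was 0.34 (adjusted permutation p = 0.368) and rho 0.39. All of these values pool SG and SHAM.

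**Figure D4:**
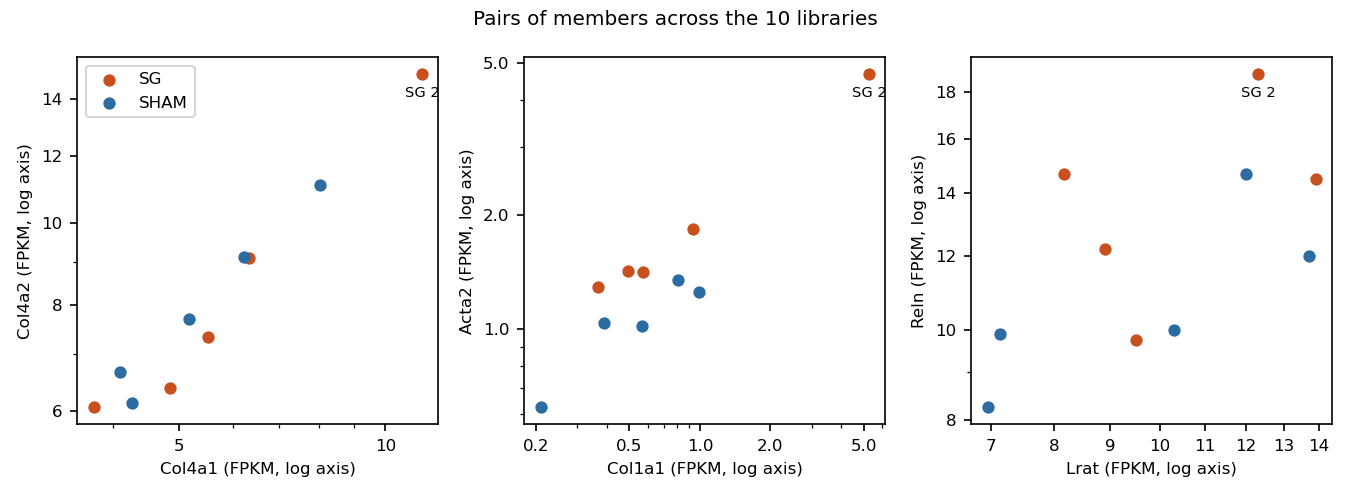
Each dot is 1 library, with the FPKM of 1 member on each axis, both log axes, for Col4a1 against Col4a2, Col1a1 against Acta2, and Lrat against Reln. The Col4a1 and Col4a2 points lie near a line (r 0.98), SG 2 sits far from the others for Col1a1 and Acta2, and Lrat and Reln scatter (r 0.61).

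Fn1, fibronectin, made by hepatocytes for plasma and by mesenchymal cells for the matrix, was the most abundant member (chr9:78900103-78969102). It had 315, 576, 319, 408 and 313 FPKM in SG and 337, 265, 308, 353 and 334 in SHAM. Apart from SG 2 only SG 4 exceeded the SHAM range in FPKM. By log2 CPM with TMM factors, minus the gene's mean, SG 4 at 0.147 lay below SHAM 4 at 0.184. The log2 fold change was 0.15 ± 0.23 (SE), or -0.07 ± 0.17 without SG 2. Fn1 and Col18a1 together made up 69.7% to 79.2% of the summed FPKM of all members, so any sum over the members follows these 2 genes. An assembled transcript antisense to Fn1 was kept out of the sum by the rule on isoform class and had 3.71 to 15.2 FPKM in SG and 3.88 to 10.6 in SHAM, the highest in SG 2.

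Sparc, osteonectin, a collagen-binding glycoprotein, had 19.8, 39.8, 15.9, 23.6 and 25.5 FPKM in SG and 17.9, 12.7, 14.2, 25 and 34.0 in SHAM. SG 2 and SHAM 5 were the 2 highest, and the log2 fold change was 0.15 ± 0.32 (SE), or -0.09 ± 0.30 without SG 2. Thbs1, thrombospondin 1, which can activate latent TGF beta, had 2.81, 7.32, 2.96, 3.34 and 4.28 FPKM in SG and 2.97, 2.72, 1.71, 2.28 and 2.11 in SHAM. In FPKM, SG 1 and SG 3 lay below SHAM 1 and the other SG libraries above all SHAM libraries. By log2 CPM with TMM factors, minus the gene's mean, SG 4 at 0.117 also lay below SHAM 1 at 0.3. The log2 fold change was 0.69 ± 0.29 (SE), with an unadjusted p of 0.0403 and an adjusted p of 0.991 (edgeR), and without SG 2 it was 0.43 ± 0.25, with an unadjusted p of 0.122. Dcn, decorin, a small proteoglycan that binds collagen fibrils and TGF beta, was the least even of the 28 tested members once SG 2 was set aside, with a coefficient of variation of 55.0% over the other 9. It had 4.01, 16.4, 5.86, 7.65 and 7.29 FPKM in SG and 10.1, 10.2, 4.38, 1.04 and 2.32 in SHAM. The SHAM libraries alone spanned 1.04 to 10.2, and the log2 fold change was 0.51 ± 0.58 (SE), or 0.10 ± 0.56 without SG 2. Its neighbour Lum, lumican, which lies 37.4 kb away on chr7 and is a marker of fibroblasts, had 1.85 FPKM in SG 2, 0.0189 to 0.174 in the other SG libraries and 0 to 0.136 in SHAM.

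Spp1, osteopontin, a secreted phosphoprotein of cholangiocytes, macrophages and activated stellate cells, stayed under the filter, at 1.65 FPKM in SG 2, 0.0855 to 0.891 in the other SG libraries and 0.0534 to 0.745 in SHAM. Lox, lysyl oxidase, which crosslinks collagen and elastin, was under it too, with 0.934 FPKM in SG 2, 1.44 in SHAM 5 and 0.0434 to 0.253 in the other 8. Its relative Loxl2 had 1.78, 2.51, 1.12, 1.39 and 1.74 FPKM in SG and 1.47, 1.56, 1.05, 1.97 and 3.4 in SHAM. SHAM 5 was the highest of the 10 and SG 2 the next, with a log2 fold change of -0.25 ± 0.33 (SE), and of -0.44 ± 0.33 without SG 2.

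Matrix-degrading enzymes and their inhibitors showed no called difference in either direction. Mmp2, gelatinase A, made by stellate cells, had 2.26, 5.60, 1.81, 1.72 and 2.49 FPKM in SG and 2.15, 2.67, 0.970, 1.78 and 2.23 in SHAM. Without SG 2 its log2 fold change went from 0.42 ± 0.35 (SE) to -0.01 ± 0.24. Mmp14, the membrane protease that activates pro-MMP2, was the more abundant of the 2, at 20.6, 41.7, 14.8, 26.0 and 28.1 FPKM in SG and 21.3, 13.5, 21.7, 38.6 and 25.2 in SHAM. SG 2 and SHAM 4 were the highest, and the log2 fold change was 0.02 ± 0.32 (SE), or -0.22 ± 0.30 without SG 2. Timp2, an inhibitor that also takes part in MMP2 activation, had 3.47, 6.88, 3.17, 4.15 and 3.45 FPKM in SG and 3.67, 4.44, 4.37, 3.07 and 2.79 in SHAM. Only SG 2 left the SHAM range upward, with a log2 fold change of 0.12 ± 0.23 (SE), or -0.13 ± 0.17 without it. Timp1, the inhibitor that rises in fibrotic liver, had 1.25, 2.60, 0.979, 2.24 and 1.62 FPKM in SG and 0.977, 1.49, 2.56, 1.44 and 1.88 in SHAM. Its highest SG and SHAM values were nearly equal, and the log2 fold change was -0.06 ± 0.32 (SE), or -0.25 ± 0.33 without SG 2, from counts of 60 to 206 a library.

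Tgfb1, the growth factor, had 3.72, 6.77, 2.91, 3.29 and 3.14 FPKM in SG and 2.22, 3.38, 3.84, 4.27 and 6 in SHAM. SG 2 and SHAM 5 were the highest of their groups, the 2 libraries with the highest macrophage marker sums. Among tested members they were also the 2 highest for Col3a1, Col4a1, Col4a2, Col4a4, Sparc and Loxl2. The share of all genes with these 2 libraries highest was not counted, and a link to macrophages was not tested. The log2 fold change of Tgfb1 was -0.10 ± 0.31 (SE), and -0.38 ± 0.27 without SG 2.

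**Figure D5:**
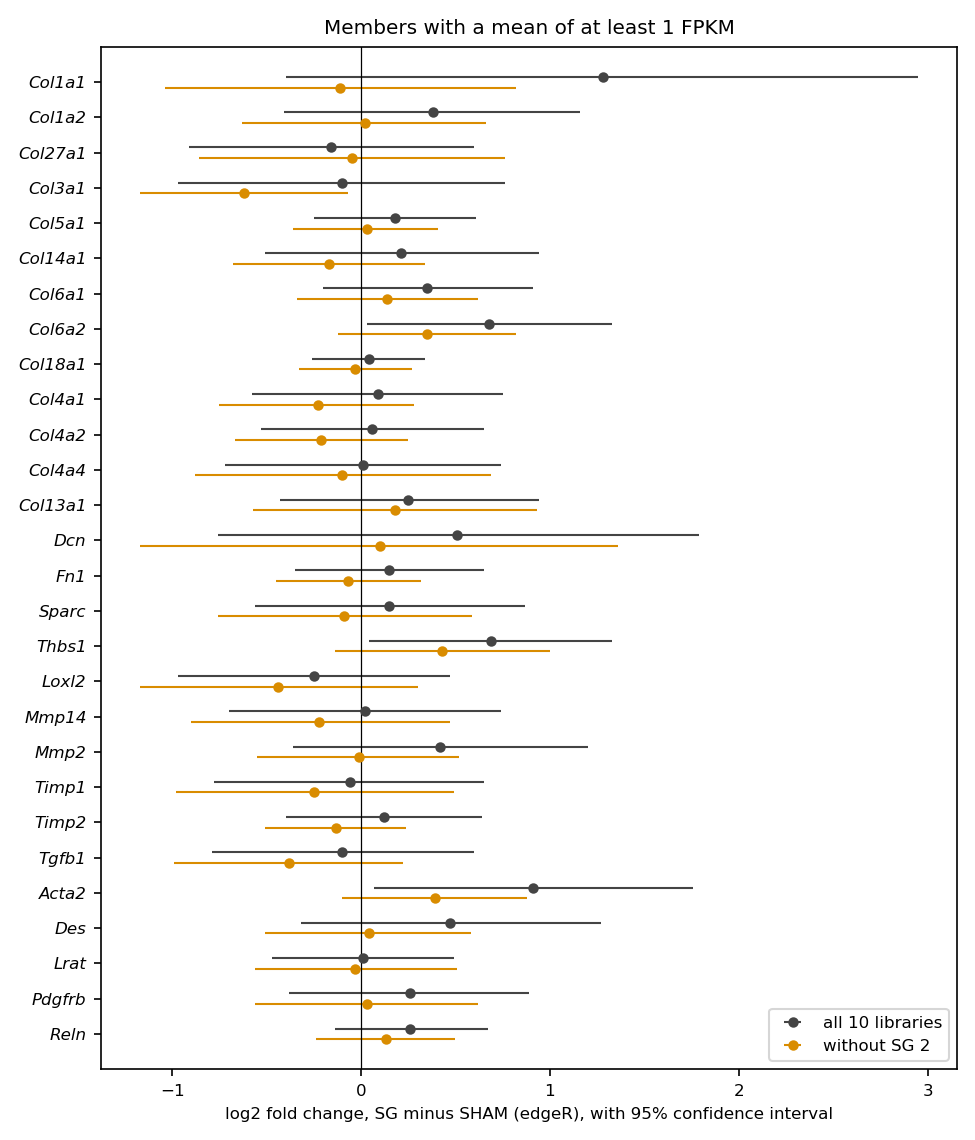
Points give the log2 fold change, SG minus SHAM, of each of the 28 members from edgeR, and lines its 95% confidence interval, with all 10 libraries (dark) and without SG 2 (orange). Most orange points lie left of their dark partner, as for Col1a1 (1.28 and -0.11), Acta2 (0.91 and 0.39) and Col3a1 (-0.10 and -0.62).

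The other tested collagen was Col13a1, a transmembrane collagen, with 0.859 to 1.46 FPKM in SG, 0.488 to 1.36 in SHAM and a log2 fold change of 0.25 ± 0.31 (SE), or 0.18 ± 0.33 without SG 2. Of the 25 collagens under 1 FPKM, 18 were under 0.5 FPKM in every library, and 12 members were at 0 in at least 1 library. Close to the filter were Col4a5, with a mean of 0.992 FPKM, Col5a2, with 0.958, and Col12a1, with 0.925. Col12a1, a collagen on fibril surfaces, had 2.77 FPKM in SG 2, 0.44 to 0.714 in the other SG libraries and 0.357 to 1.76 in SHAM, and its log2 fold change was 0.30 ± 0.56 (SE), or -0.46 ± 0.43 without SG 2. Col8a1, a vessel wall collagen, had 1.75 FPKM in SG 2, 0.339 to 0.903 in other SG and 0.186 to 0.660 in SHAM, with 1.01 ± 0.42 and 0.63 ± 0.37 on the log2 scale. Col15a1 was at 0 in 9 libraries of both groups and had 0.155 FPKM in SG 2, from 82 counts. Of the cartilage collagens, Col11a1, Col11a2, Col9a2 and Col9a3 had at most 25 counts in any library. In a fit without the filter, the smallest unadjusted p among members under 1 FPKM was that of Col6a5, with a log2 fold change of 2.05 ± 0.62 (SE), an unadjusted p of 0.00673 and an adjusted p of 0.801 (edgeR), from a mean of 0.0735 FPKM. Without SG 2 it was that of Col22a1, with a log2 fold change of -2.86 ± 0.57 (SE), an unadjusted p of 0.00053 and an adjusted p of 0.861 (edgeR), from a mean of 0.104 FPKM over the 10 libraries.

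No isoform share passed the test between groups. For 12 members with at least 2 isoforms of 10% or more, the share of the main isoform was compared by a two-sided exact permutation test over all splits into 5 and 5, which cannot give a p under 0.00794. None had an adjusted p under 0.05 over the 12, and 2 had an unadjusted exact p under 0.05. The main Col4a2 isoform, an assembled one, held 60.1% ± 2.35 of the gene's level in SG and 55.9% ± 2.17 in SHAM (SD, n = 5; exact permutation p = 0.0317, adjusted 0.238), with overlapping ranges of 57.3% to 62.9% and 52.8% to 58.0%. It spans chr16:83386224-83432197, and the next most abundant Col4a2 isoform, also assembled, spans chr16:83432959-83522214. These do not overlap, so this share compares separate parts of the gene and cannot show a choice between isoforms. The reference Dcn isoform held 75% ± 7.07 in SG and 90.3% ± 10.8 in SHAM (SD, n = 5; exact permutation p = 0.0397, adjusted 0.238), and 100% in SHAM 4 and SHAM 5, where Dcn was lowest. For Timp1 the share was between 0% and 4.83% in 5 libraries and between 72.4% and 100% in the other 5, in both groups, and for Col6a2 it ran from 1.9% to 82.6%. With shares this uneven within a group, members are given as gene sums.

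Genes that work with the members were read from lists of the TGF beta pathway, collagen processing, basement membrane and glycoproteins, matrix breakdown, matrix receptors and PDGF. Of these, 81 genes that are not members were tested and 0 were called in either direction by edgeR, with 1 at an unadjusted p under 0.05. This was Adamts1, a secreted protease that cleaves proteoglycans, whose mean FPKM was 5.97 ± 1.16 (SD, n = 5) after SG against 7.88 ± 1.25 (SD, n = 5), a log2 fold change of -0.49 ± 0.18 (SE), or -0.42 ± 0.18 without SG 2, and an adjusted p of 0.991 (edgeR). The median log2 fold change of the 81 was 0.06, or 0.00 without SG 2, and 35 of the 81 (43.2%) were highest in SG 2, against 15.9% of all genes. By list, 14 of 18 basement membrane and glycoprotein genes were highest in SG 2, and 1 of 13 matrix breakdown genes. Serpinh1, the collagen chaperone HSP47, had 13.6 FPKM in SG 2, 3.35 to 8.29 in the other SG libraries and 3.67 to 5.79 in SHAM. The difference between groups on the log2 scale was 0.60 ± 0.35 (SE), and 0.26 ± 0.28 without SG 2. Fbln5, fibulin 5, an elastic fibre protein, had 4.08 FPKM in SG 2, 0.940 to 2.16 in other SG and 0.482 to 2.23 in SHAM, with a log2 fold change of 0.84 ± 0.44 (SE), and 0.46 ± 0.40 without SG 2. Bambi, a decoy receptor that dampens TGF beta signalling, had 2.07 FPKM in SG 2, 1.3 to 1.77 in other SG and 1.13 to 1.48 in SHAM, with a log2 fold change of 0.29 ± 0.17 (SE), or 0.19 ± 0.16 without SG 2. Among the other genes with the 2 smallest p in a list, the log2 fold change was 0.30 ± 0.15 (SE) for the matrix glycoprotein Ecm1 (0.31 ± 0.17 without SG 2), and 0.18 ± 0.11 for the TGF beta co-receptor Tgfbr3 (0.08 ± 0.08 without it). It was 0.41 ± 0.29 for the protease Adamts7 (0.37 ± 0.32), 0.33 ± 0.19 for the scavenging receptor Lrp1 (0.18 ± 0.17) and 0.15 ± 0.10 for the collagen receptor subunit Itga1 (0.16 ± 0.11). For the PDGF receptor Pdgfra it was 0.32 ± 0.23 (0.20 ± 0.23) and for the ligand Pdgfc -0.04 ± 0.16 (0.00 ± 0.17). Colgalt1, a collagen galactosyltransferase, had -0.20 ± 0.11, and -0.27 ± 0.11 without SG 2 with an unadjusted p of 0.0305. Colgalt1 and Adamts1 were the 2 genes of the 81 at an unadjusted p under 0.05 without SG 2, with 0 called.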

How the data were processed

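RNA was depleted of ribosomal RNA and sequenced as paired ends with inserts near 300 bp, from RNA of RIN above 7.0, per the labels' protocols. Per the submitters' processing notes, the tools included HISAT2 2.0.4 and StringTie 1.3.4, with cutadapt 1.9 and FastQC 0.10.1, and the build was Rnor_6.0. One isoform table from the authors gives FPKM and, in further columns, whole-number counts for each library. The deposited counts follow FPKM times length and are used as estimated counts, and no source used here states how they were made.

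FPKM and counts of isoforms of class =, c, j or o were summed per gene name. Genes at a mean of at least 1 FPKM were tested with edgeR 4.0.16 (quasi-likelihood, TMM, two-sided, R 4.3.3), with group as the only term and Benjamini-Hochberg adjustment over all genes. SE is the log2 fold change over the root of F. The fit was tested on simulated counts. Isoform shares used exact permutation, and correlations 100000 permutations with Python 3.11.15 and scipy 1.17.1. Values per library are given for members listed in the design by name, for the 3 collagens with the highest mean and the members with the 3 smallest p in each direction; for the other lists, for up to 2 genes with the smallest p in a list and for a few markers chosen after their values were seen. Members and lists were chosen with earlier results of these data known. Alternatives were each library left out, SG 2 and SHAM 5 left out together, RLE size factors, DESeq2 1.42.0, limma 3.58.1 on log2(FPKM + 0.5) and log2(FPKM + 0.1), other filters, reference isoforms alone and a replicate block. All 56 members matched RefSeq gene names, and 41 matched promoter windows, credited to RefSeq on GRCr8.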

Additional observations from a re-analysis of the deposited data

Results flagged for a closer look

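Within each group of 5 libraries, 31 genes (the 28 tested members with Spp1, Lox and Lum) were looked at for a highest or lowest library set apart from the others by more than 0.71 of the group's whole range. A single group is flagged by chance about 1 time in 20, and 10 of 62 groups were flagged. Many of these genes were high together in SG 2, and Col1a1 and Col13a1 passed the filter only through SG 2. The groups are therefore not separate draws, and the count of flags cannot be set against that rate. In SG the library set apart was SG 2 in all 8 cases, each time as the highest. Its values were 5.25 FPKM for Col1a1, 40.8 for Col3a1, 4.67 for Acta2, 5.6 for Mmp2, 6.88 for Timp2, 6.77 for Tgfb1, 0.934 for Lox and 1.85 for Lum. In SHAM, SHAM 5 was set apart for Lox with 1.44 FPKM, and SHAM 1 for Lum with 0.136.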

How the results depend on the processing

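No member was called under any of the 19 alternatives of the fit. Over all genes 0 were called, against 18 with DESeq2, 1 without SG 2 and SHAM 5 together (Klhdc7a), and 0 to 1 when single libraries were left out (AABR07072266 without SG 5, Mir30a without SHAM 1). With a replicate block 0 genes were called, 456 stood at an unadjusted p under 0.05 and the members' median was 0.14; same-numbered libraries correlated at -0.219 to 0.141 and 1 of 10 correlated best with its own number. At an unadjusted p under 0.05 stood 912 of 20021 genes without the filter, against 505 of 11139, and in limma with 0.5 added 659 higher and 55 lower, against 299 and 206. Of 509 member values under alternatives, 49 changed sign, over 19 members. Without SG 2 and SHAM 5 the log2 fold changes were -0.05 for Col14a1, Col4a1 and Col4a2, -0.08 for Col18a1, -0.09 for Dcn, -0.04 for Fn1, -0.19 for Mmp14 and -0.21 for Timp2. With reference isoforms alone they were -0.02 for Mmp14 and -0.25 for Pdgfrb. In limma with 0.1 added they were 0.03 for Col27a1, 0.01 for Tgfb1 and 0.04 for Timp1, and with 0.5 added 0.01 for Tgfb1 and 0.03 for Timp1. With single libraries left out, the log2 fold changes that changed sign ran from -0.11 to 1.53 for Col1a1, from -0.62 to 0.08 for Col3a1, from -0.17 to 0.38 for Col14a1, from -0.03 to 0.10 for Col18a1, from -0.23 to 0.27 for Col4a1, from -0.21 to 0.22 for Col4a2, from -0.11 to 0.25 for Col4a4, from -0.07 to 0.23 for Fn1, from -0.09 to 0.42 for Sparc, from -0.44 to 0.09 for Loxl2, from -0.01 to 0.54 for Mmp2, from -0.22 to 0.28 for Mmp14, from -0.25 to 0.14 for Timp1, from -0.13 to 0.21 for Timp2, from -0.38 to 0.12 for Tgfb1, and from -0.10 to 0.15 for Lrat. The differences in isoform share, in percentage points, that changed sign ran from -1.45 to 8.82 for Col14a1, from -7.80 to 5.27 for Col4a4, from -10.10 to 1.01 for Col5a1, from -7.68 to 12.50 for Col6a2, from -3.57 to 0.17 for Lrat and from -11.78 to 0.50 for Thbs1. The cause of these changes was not tested. In depth, tested members had at least 60 counts in each library, while members under 1 FPKM went down to 0.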

Other observations

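Assembled transcripts of other classes bear the names of collagens but lie outside the gene sums. One on chr20, of class e (a single exon that reaches into an intron), carries the name Col10a1, spans 22070 bases and had 1.39 to 2.03 FPKM in SG and 1.32 to 1.92 in SHAM, while no isoform of the summed classes carries that name. One inside an intron of Col19a1, of 214 bases, had 0.611 to 2.83 FPKM in SG and 0.596 to 3.76 in SHAM. One inside an intron of Col18a1, of 1014 bases, had 2.19 FPKM in SG 1 and 1.16 in SG 5 and was listed at 0 in the other 8 libraries.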
